A study of Mus musculus with 6 samples.

Results

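The 9 genes described here belong to mitophagy, the removal of mitochondria by autophagy, and were measured in group 2 innate lymphoid cells (ILC2s), tissue lymphocytes that release type 2 cytokines in response to the alarmin IL-33. They were chosen by symbol as receptors, the kinase Pink1 and regulators of the pathway, and all 9 were found among the 18543 genes of the deposited table of estimated counts and passed the low-count filter. The cells came from lungs of C57BL/6 mice aged 8 weeks that received 0.5 µg of recombinant mouse IL-33 intranasally on each of 3 consecutive days, in both genotypes, and were isolated on day 4. The libraries were 3 labelled wild type (WT 1 to WT 3) and 3 labelled Atg5-/- (KO 1 to KO 3), each from 10 ng of RNA. No library from mice without IL-33 was analysed here. The labels give neither the deleted exons of Atg5 nor any promoter or Cre that would restrict the deletion to ILC2s, and they do not tie each library to a mouse of its own, so p-values reflect only the spread between these samples, some of which may be technical.

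A mitochondrion is marked for autophagy in either of 2 known ways. Receptors that sit in its membranes bind LC3 and GABARAP proteins on the growing autophagosome directly. In the other way the kinase PINK1 builds up on damaged mitochondria and, with the ubiquitin ligase Parkin, coats them with phosphorylated ubiquitin that soluble adaptors recognise, a step that deubiquitinases can undo. ATG5, the protein targeted in the knockout, belongs to the machinery that attaches LC3 and GABARAP proteins to the autophagosome membrane, and so acts after the receptors and PINK1.

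Libraries held 28827545 to 33662979 estimated counts, and levels are given as CPM, counts scaled to the adjusted library size. Atg5 itself was at 66.3, 71.7 and 21.8 CPM in the WT 1-, WT 2- and WT 3-labelled libraries and at 23.0, 25.6 and 52.1 CPM in the KO 1-, KO 2- and KO 3-labelled ones. The WT 3-labelled library thus lay below all 3 libraries labelled knockout in the targeted gene, which goes against its label, and the KO 3-labelled library lay between the others. Over 14052 genes the log2 CPM of the WT 3-labelled library correlated more closely with the KO 1-labelled library (r = 0.991) than with the WT 1-labelled library (r = 0.946) (genes are not independent replicates). Every direction below is therefore one between labels, and tests are given with and without the WT 3-labelled library. The marker lists split the libraries as most mitophagy genes below did. Of 59 listed markers, 40 were among the deposited genes, and only these enter the sums below. Those absent include Cdh5 and Kdr (endothelium), Ncr1 and Klrb1c (NK cells), Ms4a1 and Pax5 (B cells), and Sftpc and Sftpb (epithelium). Of 9 ILC2 markers, 8 were above 1 CPM in every library, and 8 were higher in the WT 1- and WT 2-labelled libraries than in each of the other 4, with Il7r lower. Over all 14052 genes tested, 28.2% were higher and 29.6% lower in those 2 libraries in the same way. Klrg1 was at 525.9 and 556.0 CPM in those 2 against 121.3 to 174.3 CPM, Id2 at 1999 and 2137 against 931.1 to 1032 CPM, and Il1rl1, which encodes the IL-33 receptor, at 972.2 and 922.8 against 431.9 to 526.7 CPM. Summed, the ILC2 markers were at 8858 and 8895 CPM in those 2 libraries and at 5441 to 5724 CPM in the other 4. Of the 10 marker lists in all, 8 had higher sums in those 2 libraries than in each of the other 4, 1 (endothelium) had lower sums and 1 (stroma, at or below 0.542 CPM) was not separated. T cell markers summed to 40.4 and 41.6 CPM against 22.7 to 25.3 CPM, B cell markers to 14.7 and 19.5 against 6.66 to 14.3 CPM, NK cell markers to 0.753 and 1.60 against 0.0319 to 0.563 CPM, macrophage markers to 11.7 and 10.6 against 2.39 to 5.78 CPM, and granulocyte and mast cell markers to 10.4 and 6.18 against 0.542 to 4.01 CPM. In the WT 1- and WT 2-labelled libraries a single gene made up most of each of these sums. These genes were Cd3g (35.2 and 37.2 CPM), Cd79b (14.5 and 19.3 CPM), Prf1, Cd68 and Cpa3. No other T or B cell marker, such as Cd3e, Cd5 or Cd79a, was higher in those 2 libraries than in each of the other 4. Epithelial markers summed to 58.2 and 52.3 CPM against 8.90 to 29.0 CPM, nearly all of it Epcam, except that Scgb1a1 was at 15.0 CPM in the KO 2-labelled library and at 0 in the WT 1- and WT 2-labelled ones. Endothelial markers summed to 10.3 and 8.53 CPM against 92.0 to 130.4 CPM, nearly all of it Pecam1, while Cldn5 did not exceed 0.199 CPM. The part of these differences in the results below was not tested. In bulk samples, a smaller share of cells that hold a transcript and less transcript per cell cannot be told apart.

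Of the 9 genes, 7 separated the WT 1- and WT 2-labelled libraries from the other 4. Bnip3, Bnip3l, Fundc1, Fkbp8 and Pink1 were higher in those 2 libraries, and Bcl2l13 and Phb2 were lower. Usp30 and Usp8 were not separated in this way. This arrangement was noticed in these data and is given as a description, with no test. Among all 14052 genes tested, 57.8% separated the same libraries, 28.2% with higher and 29.6% with lower levels in those 2, so 7 of 9 is not far above the background. The ranges of the 2 labels overlapped in each of the 9 genes, while in 18.5% of all genes tested they did not. Once the WT 3-labelled library is left out, they did not overlap in 7 of the 9, as in 61.6% of all genes. Fitted to all 6, the quasi-likelihood test of edgeR passed 0 of the 9 at an adjusted p under 0.05 (0% of the 14052 genes tested). At an unadjusted p under 0.05 it found 0 of the 9, against 14.4% of all genes tested. DESeq2 also passed 0 of the 9, while it passed 2.55% of the genes it tested. By DESeq2, 2 of the 9 had an unadjusted p under 0.05, against 2616 of 12647 genes. Without the WT 3-labelled library, edgeR passed 7 of the 9, of which 5 fell and 2 rose, against 33.9% of 14743 genes (16.1% lower and 17.7% higher). The median log2 difference of the 9 genes was -0.27 with all 6 libraries and -0.43 without the WT 3-labelled library, against medians of 0.02 and 0.03 over all genes tested.

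**Figure D1:**
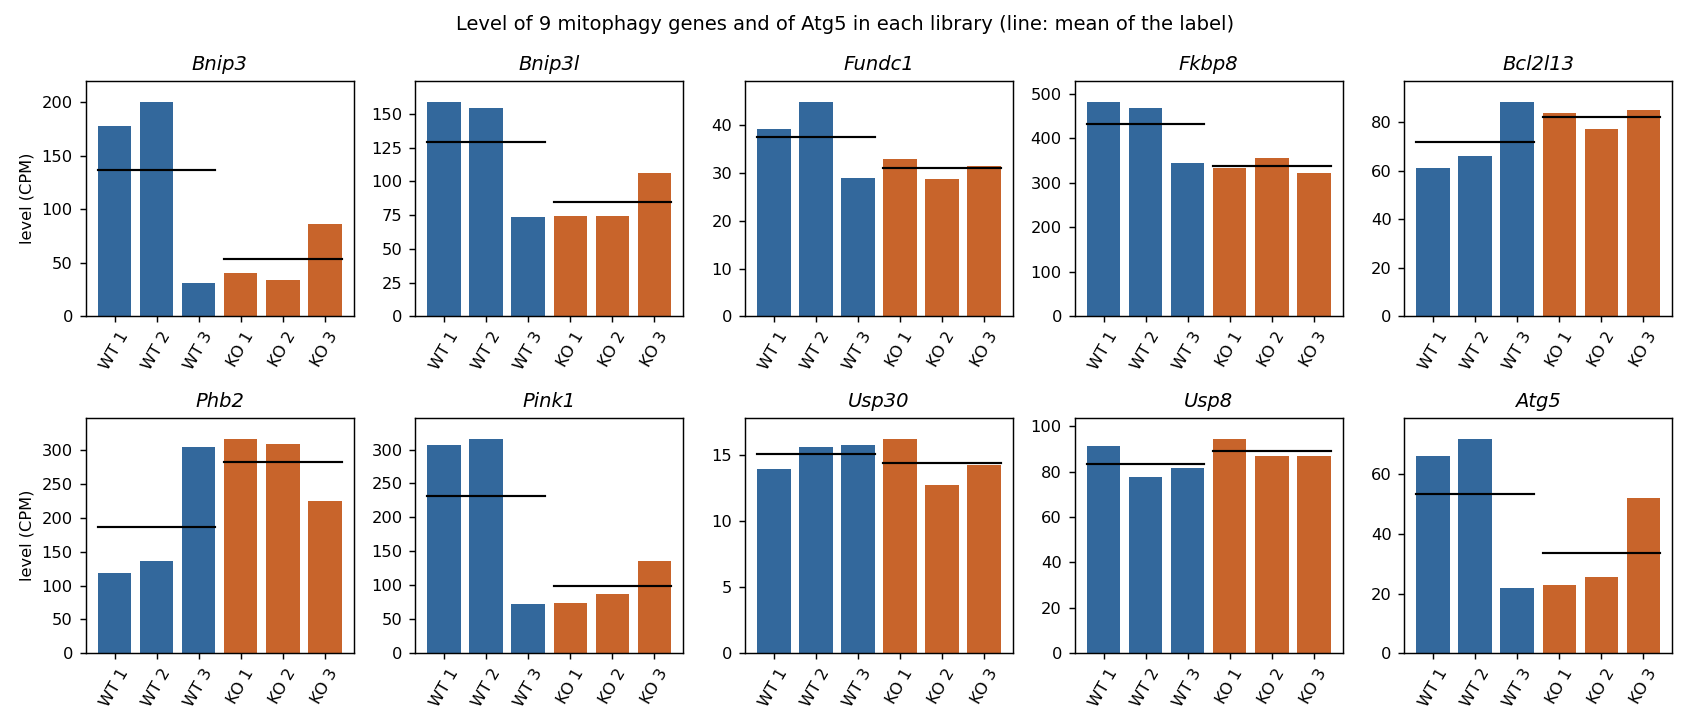
Level (CPM, vertical axis from 0) of the 9 mitophagy genes and of Atg5 in each library, in blue for the wild-type label and orange for the knockout label, with a black line at the mean of each label (n = 3). In Bnip3, Bnip3l, Pink1 and Phb2 the WT 3-labelled library stands with the KO 1- and KO 2-labelled ones, and the KO 3-labelled library lies between them and the WT 1- and WT 2-labelled libraries; Usp30 and Usp8 show little spread.

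Bnip3 and Bnip3l encode related receptors of the outer mitochondrial membrane, both known as targets of the hypoxia-inducible factor HIF-1. BNIP3L, also called NIX, clears mitochondria from maturing red cells. Bnip3 lies on chromosome 7 from 138890836 to 138909519 on the reverse strand (mm10), and Bnip3l on chromosome 14 from 66985239 to 67008877 on the reverse strand. Bnip3 was at 177.6, 199.4 and 31.5 CPM in the WT 1-, WT 2- and WT 3-labelled libraries and at 40.5, 34.2 and 86.6 CPM in the KO 1-, KO 2- and KO 3-labelled ones. The WT 1- and WT 2-labelled libraries were highest, the WT 3-labelled library was the lowest of all 6, and the labels overlapped. Its range of 6.32-fold was the widest of the 9 genes. Group means were 136.2 ± 91.3 CPM for the wild-type label and 53.8 ± 28.6 CPM for the knockout label (SD, n = 3 each), and the log2 difference of -1.34 (SE 0.67) did not pass (adjusted p = 0.361, edgeR). Without the WT 3-labelled library, Bnip3 fell by 1.80 in log2 units (SE 0.36, adjusted p = 0.00848, edgeR), that is to 0.287 of the wild-type level. Bnip3l was at 158.4, 154.2 and 73.7 CPM and at 74.2, 74.4 and 105.9 CPM in the same order. It showed the same arrangement of libraries over a smaller range, 2.15-fold, with the WT 3-labelled library within 1 CPM of the KO 1- and KO 2-labelled ones. Its log2 difference was -0.60 (SE 0.31, adjusted p = 0.367, edgeR) with all 6 libraries, and it fell by 0.88 without the WT 3-labelled library (SE 0.17, adjusted p = 0.00641, edgeR). The ratio of Bnip3 to Bnip3l counts was 1.12 and 1.29 in the WT 1- and WT 2-labelled libraries, 0.428 in the WT 3-labelled library, and 0.546, 0.460 and 0.818 in the KO 1-, KO 2- and KO 3-labelled ones, so Bnip3 varied more than Bnip3l. Summed erythroid markers, of interest because red cell precursors are rich in Bnip3l, were at 10.9, 9.88 and 5.83 CPM in the WT 1-, WT 2- and WT 3-labelled libraries and at 8.45, 8.32 and 7.75 CPM in the KO 1-, KO 2- and KO 3-labelled ones. The WT 1- and WT 2-labelled libraries were highest and the WT 3-labelled one lowest, as for Bnip3l, and the part of these markers in its level was not tested.

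Fundc1, Fkbp8 and Bcl2l13 encode 3 further receptors of the outer membrane. FUNDC1 is regulated by phosphorylation near its LC3-binding motif, FKBP8 is a tail-anchored member of the FK506-binding family that also holds BCL2 at mitochondria, and BCL2L13 is the mammalian counterpart of the yeast receptor Atg32. Fundc1 (chromosome X, 17556564 to 17572325, reverse strand) was at 39.2, 44.7 and 28.9 CPM with the wild-type label and at 33.0, 28.8 and 31.5 CPM with the knockout label. Only the WT 1- and WT 2-labelled libraries lay above the other libraries, and the WT 3-labelled library lay inside the knockout range. The log2 difference was -0.27 (SE 0.19, adjusted p = 0.447, edgeR) with all 6 libraries. Without the WT 3-labelled library it fell by 0.43 (SE 0.13, adjusted p = 0.0412, edgeR), the weakest of the 7 calls. Fkbp8 (chromosome 8, 70527724 to 70535328, forward strand) was at 480.4, 468.9 and 344.4 CPM and at 334.0, 355.5 and 321.3 CPM. It was narrow in spread within the knockout label, 336.9 ± 17.3 CPM (SD, n = 3). Its log2 difference over all 6 was -0.36 (SE 0.17, adjusted p = 0.357, edgeR), not a call, and it fell by 0.49 without the WT 3-labelled library (SE 0.08, adjusted p = 0.00436, edgeR). Bcl2l13 (chromosome 6, 120836212 to 120892842, forward strand) was the outer-membrane receptor that went the other way. It was at 61.0, 66.1 and 88.1 CPM with the wild-type label and at 83.6, 77.2 and 85.0 CPM with the knockout label, and the WT 3-labelled library was the highest of all 6. Its log2 difference was 0.19 (SE 0.17, adjusted p = 0.535, edgeR), and it rose by 0.37 without the WT 3-labelled library (SE 0.10, adjusted p = 0.0282, edgeR).

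The make-up of the 5 outer-membrane receptor transcripts, a summary chosen after the values were seen, differed between the same libraries. After division by the length of annotated exons, Bnip3 held 31.5% and 34.2% of their summed level in the WT 1- and WT 2-labelled libraries. It held 10.6% in the WT 3-labelled library, 13.3% and 11.3% in the KO 1- and KO 2-labelled ones, and 24.0% in the KO 3-labelled library. Fkbp8 was the largest part in each library, from 40.2% (WT 2) to 58.7% (KO 2). Bcl2l13 held 2.70% and 2.82% in the WT 1- and WT 2-labelled libraries and 5.87% to 7.39% in the other 4. Shares within a library depend on each other, so a share can hold or rise while the level falls. Bnip3l changed little in share, from 14.3% to 17.2%, while its level ranged 2.15-fold. Fundc1 held 6.69% and 7.37% in the WT 1- and WT 2-labelled libraries and 8.40% to 10.4% in the other 4, where its level was lower. With the length of the principal transcript in place of all exons, Bnip3 held 22.7% and 25.0% in the WT 1- and WT 2-labelled libraries and 6.92% to 17.1% in the other 4, and Fkbp8 57.4% to 74.3% over the 6 libraries.

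**Figure D2:**
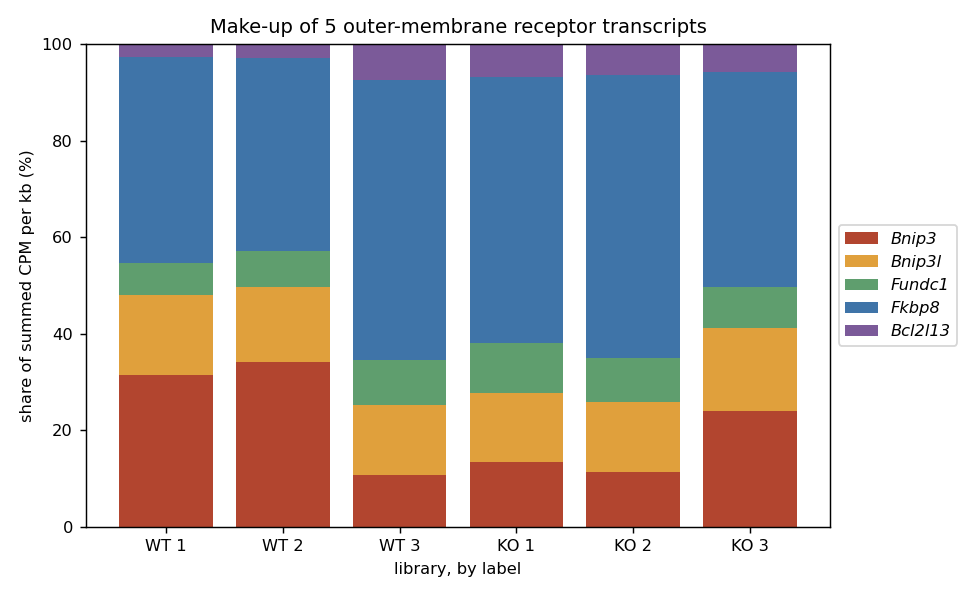
Share (%, vertical axis) of each outer-membrane receptor in their summed level per kilobase of exons, stacked to 100% for each library on the horizontal axis. The Bnip3 part is 31.5% and 34.2% in the WT 1- and WT 2-labelled libraries, 24.0% in the KO 3-labelled library and 10.6% to 13.3% in the other 3.

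Phb2 encodes prohibitin 2, a scaffold of the inner mitochondrial membrane that acts as an LC3 receptor once the outer membrane has ruptured, and that also supports the assembly of respiratory complexes and cristae. Phb2 (chromosome 6, 124712336 to 124716950, forward strand) was at 118.2, 136.6 and 305.2 CPM in the WT 1-, WT 2- and WT 3-labelled libraries and at 316.7, 309.7 and 224.5 CPM in the KO 1-, KO 2- and KO 3-labelled ones. The WT 1- and WT 2-labelled libraries were lowest, and the KO 3-labelled library lay between them and the remaining 3. The log2 difference was 0.60 (SE 0.37, adjusted p = 0.406, edgeR) with all 6 libraries. Phb2 rose by 1.16 without the WT 3-labelled library (SE 0.17, adjusted p = 0.00206, edgeR), to 2.24 times the wild-type level. Its partner Phb, which encodes prohibitin 1 and is not among the 9, was at 95.5 and 103.7 CPM in the WT 1- and WT 2-labelled libraries, 240.4 CPM in the WT 3-labelled library and 222.4 to 276.0 CPM with the knockout label, an arrangement like that of Phb2. Its log2 difference was 0.80 with all 6 libraries (adjusted p = 0.350, edgeR), and it rose by 1.36 without the WT 3-labelled library (SE 0.12, adjusted p = 0.000311, edgeR).

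Pink1 encodes the kinase that starts the ubiquitin branch. Pink1 (chromosome 4, 138313409 to 138326307, reverse strand) was at 307.2, 315.3 and 72.2 CPM in the WT 1-, WT 2- and WT 3-labelled libraries and at 74.1, 86.6 and 135.8 CPM in the KO 1-, KO 2- and KO 3-labelled ones. The WT 3-labelled library was the lowest, 4.31-fold below the mean of the WT 1- and WT 2-labelled libraries, and the KO 3-labelled library was 1.69 times the mean of the KO 1- and KO 2-labelled ones. Group means were 231.6 ± 138.1 CPM and 98.8 ± 32.6 CPM (SD, n = 3 each), with a log2 difference of -1.23 (SE 0.54, adjusted p = 0.347, edgeR). This was the lowest adjusted p of the 9 genes with all 6 libraries. Without the WT 3-labelled library, Pink1 fell by 1.65 (SE 0.23, adjusted p = 0.0019, edgeR), to 0.319 of the wild-type level. Pink1 and Phb2 exchanged order within libraries. The ratio of Pink1 to Phb2 counts was 2.60 and 2.31 in the WT 1- and WT 2-labelled libraries, 0.237 in the WT 3-labelled library, and 0.234, 0.280 and 0.605 in the KO 1-, KO 2- and KO 3-labelled ones.

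The bases before the start sites of Bnip3 and Pink1 are shown because these 2 genes had the widest ranges and lay highest in the same libraries. The sequences are from RefSeq (GRCm38.p6), reverse strand, printed 5′ to 3′ up to the base before the start of the deposited gene, and capitals mark the letters ACGTG or GCGTG, the core that HIF-1 is known to bind, on either strand (CACGT or CACGC on the printed strand). The Bnip3 line is chr7:138909520-138909756, and the Pink1 line is chr4:138326308-138326546.
Bnip3: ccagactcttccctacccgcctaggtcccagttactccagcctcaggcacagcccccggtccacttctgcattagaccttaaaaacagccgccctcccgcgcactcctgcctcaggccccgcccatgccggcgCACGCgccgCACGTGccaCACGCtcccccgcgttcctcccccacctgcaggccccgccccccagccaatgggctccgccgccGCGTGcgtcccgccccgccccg
Pink1: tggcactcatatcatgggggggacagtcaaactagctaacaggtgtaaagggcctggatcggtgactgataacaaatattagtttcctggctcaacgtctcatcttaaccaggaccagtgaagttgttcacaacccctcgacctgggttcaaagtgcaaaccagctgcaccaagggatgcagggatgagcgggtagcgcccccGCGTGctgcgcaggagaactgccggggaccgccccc
The Bnip3 window held 5 matches. Of these, 2 overlap in CACGTG, from -108 to -103 before the RefSeq start site, which is also the letters of an E-box, and 3 match GCGTG. The Pink1 window held 1 match, to GCGTG, and none to ACGTG. Over all 32851 RefSeq windows of 250 bases before a start site, 16.6% held ACGTG and 28.2% held GCGTG on either strand, 38.6% held either, and 6.02% held CACGTG. A match describes letters and does not show a site in use. Of the 9 genes, 8 matched the RefSeq table by symbol, all but Bnip3l, and 6 of these had at least 100 bases before both the RefSeq and the deposited start (all but Usp30 and Fundc1). Each of those 6 windows, trimmed to 231 to 250 bases, held at least 1 match: 2 in Fkbp8 and 1 each in Usp8, Bcl2l13 and Phb2, so a match does not set Pink1 apart from genes that did not pass or went the other way. The search used ACGTG alone at first, and GCGTG was added after Pink1 was seen to lack it.

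Usp30 and Usp8 encode deubiquitinases. USP30 sits in the outer mitochondrial membrane and removes ubiquitin from proteins that Parkin marks, and USP8 removes ubiquitin from Parkin itself and acts on endosomes. Usp30 (chromosome 5, 114065461 to 114124720, forward strand) was at 14.0, 15.6 and 15.7 CPM with the wild-type label and at 16.2, 12.7 and 14.3 CPM with the knockout label. The labels overlapped, the lowest and highest libraries were both labelled knockout, and the range was 1.27-fold. It was the least abundant of the 9, with 426 to 477 estimated counts per library. Its log2 difference was -0.07 with all 6 libraries (95% interval -0.50 to 0.37, adjusted p = 0.849, edgeR) and -0.03 without the WT 3-labelled library (95% interval -0.48 to 0.41). Usp8 (chromosome 2, 126707328 to 126759297, forward strand) was at 91.3, 77.7 and 81.5 CPM and at 94.3, 86.7 and 86.8 CPM in the same order. The range was 1.21-fold, the narrowest of the 9. Its log2 difference was 0.10 with all 6 libraries (95% interval -0.20 to 0.39, adjusted p = 0.678, edgeR) and 0.09 without the WT 3-labelled library (95% interval -0.17 to 0.34). Missing the threshold does not show that either gene was level between labels.

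**Figure D3:**
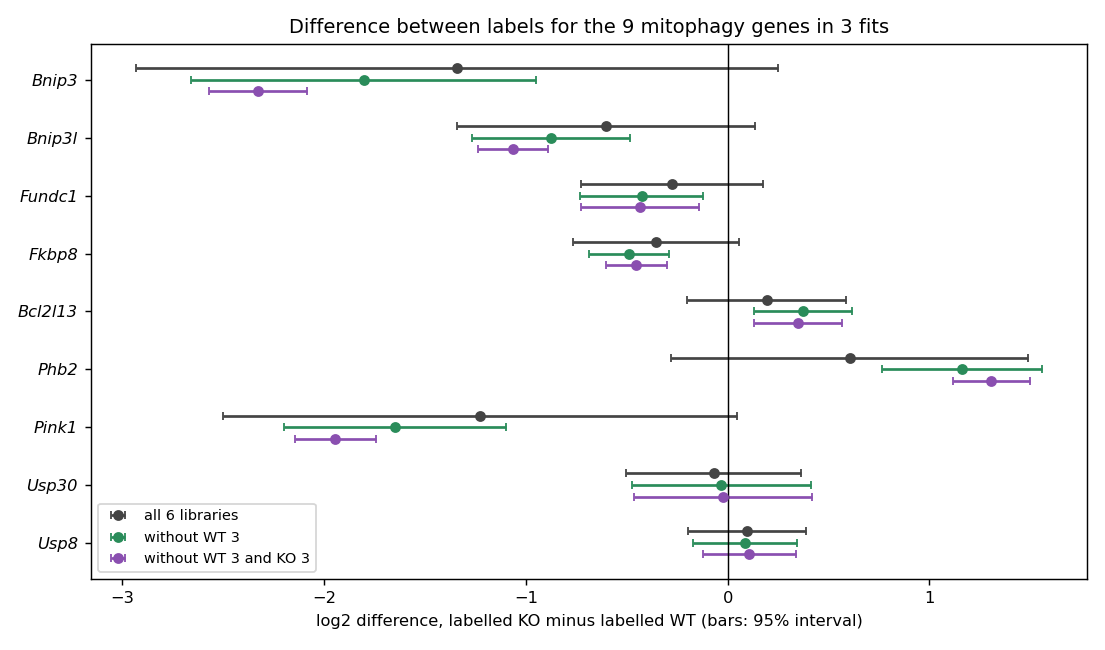
Log2 difference between labels (knockout minus wild type, horizontal axis) with its 95% interval for each of the 9 genes, from edgeR fits to all 6 libraries, without the WT 3-labelled library, and without the WT 3- and KO 3-labelled libraries. With all 6 libraries every interval spans 0; in the other 2 fits 7 intervals leave 0 and those of Usp30 and Usp8 do not.

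The KO 3-labelled library differed from the KO 1- and KO 2-labelled libraries in 4 of the 7 separated genes, in which it was the nearest of the other 4 libraries to the WT 1- and WT 2-labelled ones (Bnip3, Bnip3l, Pink1 and Phb2). Over all separated genes this held for 33.2% of 8116. Over the 14052 genes, the log2 CPM of the KO 3-labelled library was not nearer to those 2 libraries. It correlated with the WT 1- and WT 2-labelled libraries at r = 0.933 and 0.935. For the KO 1- and KO 2-labelled libraries these r were 0.944 to 0.947. Counted over the 9 genes, the KO 3-labelled library lay above the KO 1-, KO 2- and WT 3-labelled ones in 3 and below all 3 in 2, against 34.5% and 34.1% of all genes tested. It was 2.32 times the mean of the KO 1- and KO 2-labelled libraries in Bnip3, 1.42 times in Bnip3l, 1.69 times in Pink1 and 0.717 times in Phb2. Fundc1, Fkbp8, Bcl2l13, Usp30 and Usp8 lay between 0.932 and 1.06 times that mean. Atg5 was 2.14 times that mean in the same library. Without both libraries numbered 3, Bnip3 fell by 2.33 (SE 0.11), Pink1 fell by 1.95 (SE 0.09) and Bnip3l fell by 1.06 (SE 0.08) on the log2 scale, and Phb2 rose by 1.31 (SE 0.08). The 7 calls were made again in that comparison of 2 libraries with 2, in which 45.4% of 14315 genes passed by edgeR.

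Per kilobase of exons, Fkbp8 had the highest mean level of the 9 over the 6 libraries, 84.8 ± 15.7 CPM per kb (SD, n = 6). It was followed by Phb2 at 63.2 ± 24.2, Pink1 at 61.8 ± 43.2, Bnip3 at 41.9 ± 33.3 and Bnip3l at 27.7 ± 10.4 CPM per kb. Usp8 at 20.6 ± 1.45, Fundc1 at 14.6 ± 2.69, Bcl2l13 at 8.45 ± 1.21 and Usp30 at 2.43 ± 0.218 CPM per kb came last. Among neighbours in this order, the ranges over libraries overlapped down to Usp8 and Fundc1, and did not overlap between Fundc1 and Bcl2l13 or between Bcl2l13 and Usp30. The order was the same with the length of the principal transcript. The mean hides different orders within libraries. Pink1 was the highest of the 9 per kilobase of exons in the WT 1- and WT 2-labelled libraries, Phb2 in the WT 3-, KO 1- and KO 2-labelled ones, and Fkbp8 in the KO 3-labelled one alone. With the length of the principal transcript, Fkbp8 was highest in the WT 1-, WT 2- and KO 3-labelled libraries and Phb2 in the other 3. Per kilobase of exons, Pink1 was above Phb2 in the WT 1- and WT 2-labelled ones (115 and 118 against 31.8 and 36.7 CPM per kb), and Phb2 was above Pink1 in the other 4 (60.4 to 85.2 against 27.0 to 50.8 CPM per kb).

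Genes whose log2 CPM was most like that of Bnip3 in shape over the 6 libraries were Ptger4, a receptor for prostaglandin E2, and Kcna4, a potassium channel gene (Pearson r = 0.998 for each). Pearson r takes no account of the size of a difference. Ptger4 was at 63.2 to 90.2 CPM, a much narrower range than that of Bnip3. Kcna4 was at 7.11 and 7.95 CPM in the WT 1- and WT 2-labelled libraries and 0.994 CPM in the WT 3-labelled library. It was at 1.45, 0.981 and 3.00 CPM in the KO 1-, KO 2- and KO 3-labelled ones. The place of the KO 3-labelled library between the others follows from the choice of Kcna4 by its r with Bnip3. For Pink1 they were Anxa2 and H2-D1 (r = 0.999 for each), and for Phb2 Hspa8, a chaperone gene, was one of them (r = 0.999). Anxa2 (305.4 to 576.2 CPM) and H2-D1 (5967 to 9189 CPM) varied less than Pink1, and Hspa8 (2771 to 4707 CPM) less than Phb2. The libraries fall into clusters, so high values of r are common. Of 10103 genes compared, 3.21% exceeded an r of 0.95 with Bnip3, 5.10% with Pink1 and 10.0% with Phb2.

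Among 41 other genes of the pathway, 0 passed by edgeR and 0 by DESeq2 with all 6 libraries. At an unadjusted p under 0.05, edgeR found 4 of the 41, against 14.4% of all genes tested. DESeq2 found 5 in this way, against 2616 of 12647 genes. By edgeR, 14 rose and 4 fell without the WT 3-labelled library. Without both libraries numbered 3, 18 rose and 9 fell, against 22.7% of all genes in each direction. The background without the WT 3-labelled library alone was 17.7% higher and 16.1% lower over all genes. The median log2 difference of the list was 0.12 with all 6 libraries and 0.21 without the WT 3-labelled library. Of 12 genes of the Parkin branch, 5 rose and 0 fell without the WT 3-labelled library. Tomm20, part of the import complex at which PINK1 accumulates, was at 116.9 and 126.1 CPM in the WT 1- and WT 2-labelled libraries, 220.6 CPM in the WT 3-labelled library and 231.3 to 242.5 CPM with the knockout label, and rose by 0.97 (SE 0.09, adjusted p = 0.000328, edgeR). With all 6 libraries its log2 difference was 0.61 (adjusted p = 0.344, edgeR). Mul1, a ubiquitin ligase of the outer membrane, was at 25.3, 28.3 and 31.2 CPM with the wild-type label and 35.2 to 40.2 CPM with the knockout label. Its labels did not overlap, which held for 6 of the 41 genes, Tomm20 included, and for 18.5% of all genes tested. The log2 difference of Mul1 over all 6 was 0.40 (SE 0.15, adjusted p = 0.342, edgeR), not a call. It rose by 0.49 without the WT 3-labelled library (SE 0.13, adjusted p = 0.0282, edgeR). Of 11 regulators of receptors, 6 rose and 0 fell without the WT 3-labelled library. Pgam5, the phosphatase that acts on FUNDC1, was at 69.1 and 78.3 CPM in the WT 1- and WT 2-labelled libraries and 105.7 to 116.1 CPM in the other 4, and rose by 0.61 (SE 0.10, adjusted p = 0.00399, edgeR). Rheb, a small GTPase recruited by BNIP3L, was at 134.6 and 140.7 CPM against 163.8 to 211.4 CPM and rose by 0.41 (SE 0.13, adjusted p = 0.0465, edgeR). With all 6 libraries the log2 difference was 0.38 for Pgam5 (adjusted p = 0.362, edgeR) and 0.31 for Rheb (adjusted p = 0.366, edgeR).

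Of 10 adaptors and scaffolds, 2 rose and 2 fell without the WT 3-labelled library. Those that rose were Phb and Sqstm1, which encodes p62, an adaptor that is itself degraded by autophagy. Sqstm1 was at 624.4 and 666.4 CPM in the WT 1- and WT 2-labelled libraries, 1559 CPM in the WT 3-labelled library, and 1556, 1778 and 4239 CPM in the KO 1-, KO 2- and KO 3-labelled ones. In this gene the KO 3-labelled library was the farthest from the WT 1- and WT 2-labelled ones, unlike in Bnip3, Bnip3l, Pink1 and Phb2. Of 5 LC3 and GABARAP genes, 1 rose and 2 fell. Gabarapl1 rose by 1.61 (SE 0.16, adjusted p = 0.000435, edgeR), from 43.0 and 42.2 CPM in the WT 1- and WT 2-labelled libraries to 115.1 to 156.5 CPM with the knockout label, with 103.0 CPM in the WT 3-labelled library. Gabarapl2 fell by 0.33 (SE 0.10, adjusted p = 0.0458, edgeR). With all 6 libraries the log2 difference was 1.05 for Gabarapl1 (adjusted p = 0.342, edgeR) and -0.21 for Gabarapl2 (adjusted p = 0.478, edgeR). That of Sqstm1 was 1.41 (adjusted p = 0.342, edgeR) with all 6, and it rose by 1.97 without the WT 3-labelled library (SE 0.47, adjusted p = 0.0218, edgeR). None of 3 other deubiquitinase genes passed in that fit. Usp33 had an adjusted p of 0.103, and Usp35, at 1.04 to 4.52 CPM, an adjusted p of 0.0888 (edgeR). Of the 3, 2 had an unadjusted p under 0.05 by edgeR, against 6476 of 14743 genes.

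**Figure D4:**
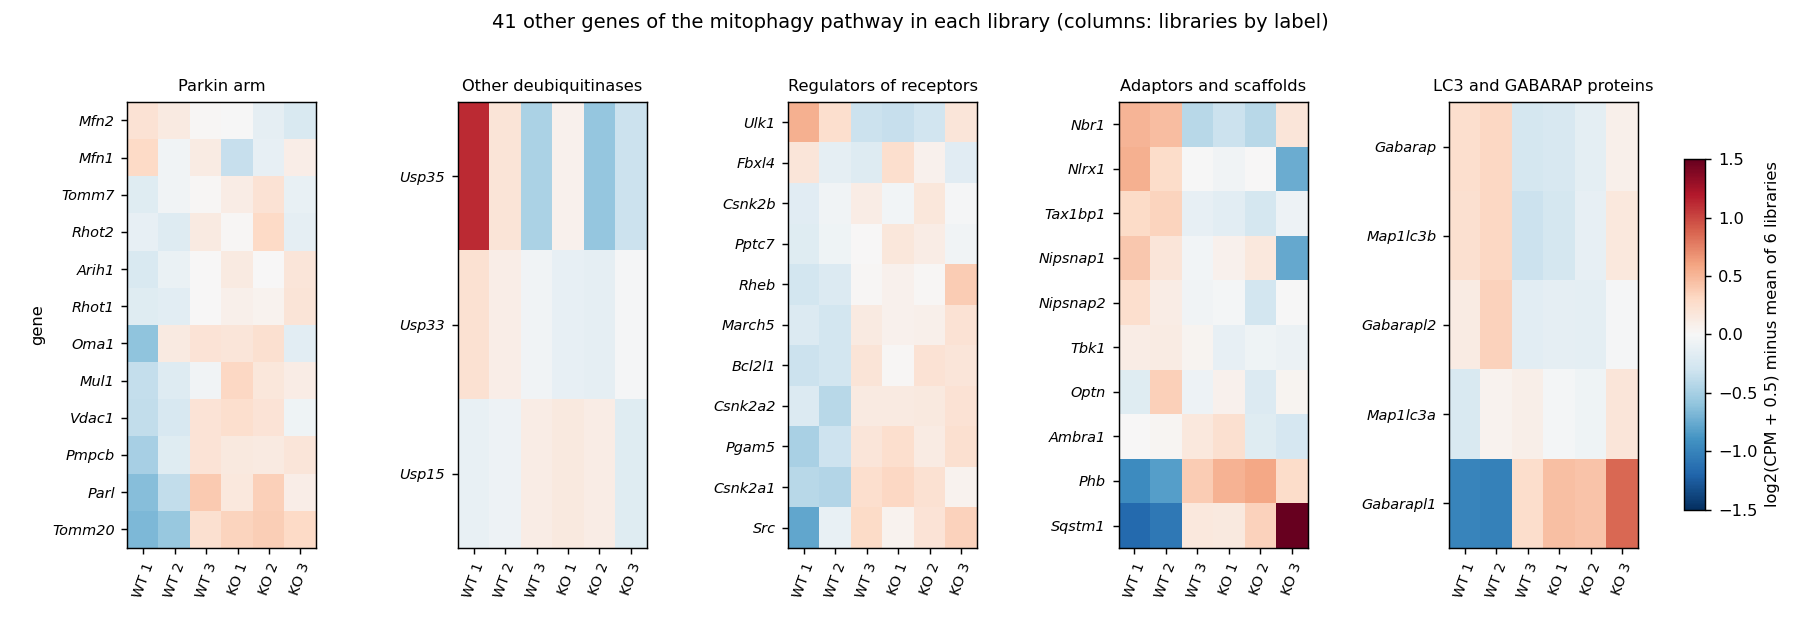
Level of 41 other pathway genes in each library (columns, by label), as log2(CPM + 0.5) minus the mean of the 6 libraries, with red above and blue below that mean. The groups are those fixed for the list; Tomm20, Phb, Sqstm1 and Gabarapl1 are blue in the WT 1- and WT 2-labelled libraries and higher in the others.

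Because Bnip3 and Bnip3l are known HIF-1 targets, 20 other targets were examined. With all 6 libraries edgeR passed 0 of them. DESeq2 passed 1, lower with the knockout label, as were 2.44% of the genes it tested. At an unadjusted p under 0.05, edgeR found 2 of the 20, against 14.4% of all genes tested. Without the WT 3-labelled library, 4 fell and 0 rose by edgeR, against 16.1% and 17.7% of all genes. Without both libraries numbered 3, 12 fell and 0 rose, against 22.7% of all genes in each direction. The 4 were Car9, Egln1, Pdk1 and Ldha, the last named after its values were seen. Car9, a carbonic anhydrase gene, was at 4.55 and 3.11 CPM in the WT 1- and WT 2-labelled libraries, 0.398 CPM in the WT 3-labelled library and 0.208 to 0.255 CPM with the knockout label, where 3 counts are 0.0892 to 0.104 CPM. Egln1, which encodes the oxygen sensor PHD2, was at 205.8 and 196.3 CPM against 116.1 to 136.1 CPM in the other 4 and fell by 0.70 (SE 0.10, adjusted p = 0.00184, edgeR). Pdk1, a kinase that limits pyruvate entry into mitochondria, was at 88.1 and 91.5 CPM against 41.7 to 56.0 CPM and fell by 0.82 (SE 0.11, adjusted p = 0.00177, edgeR). With all 6 libraries the log2 difference was -0.55 for Egln1 (adjusted p = 0.342, edgeR) and -0.54 for Pdk1 (adjusted p = 0.374, edgeR). Vegfa, the vascular growth factor, was highest in the KO 3-labelled library, at 75.2 CPM against 22.2 to 35.6 CPM elsewhere, and did not pass without the WT 3-labelled library (adjusted p = 0.118, edgeR) or with all 6 (adjusted p = 0.372, edgeR). Hif1a, which encodes the oxygen-regulated subunit of HIF-1, was at 1057, 1063 and 782.0 CPM with the wild-type label and at 749.5, 644.7 and 601.8 CPM with the knockout label. Its labels did not overlap, nor did those of 2 of the 20 targets, against 18.5% of all genes tested. Hif1a fell by 0.67 without the WT 3-labelled library (SE 0.11, adjusted p = 0.00321, edgeR) but did not pass with all 6 libraries (adjusted p = 0.342, edgeR). Foxo3, a transcription factor known to induce Bnip3 and Bnip3l, was at 6.42, 5.62 and 15.0 CPM and at 11.1, 15.0 and 23.3 CPM, and rose by 1.46 without the WT 3-labelled library (SE 0.34, adjusted p = 0.015, edgeR), with 0.87 over all 6 libraries (adjusted p = 0.367, edgeR).

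The placing of the KO 3-labelled library among these targets was looked at after the values were seen, and has no test. In it, 15 of the 20 targets lay above the KO 1-, KO 2- and WT 3-labelled libraries, and 0 lay below all 3, against 34.5% above and 34.1% below over all genes tested. The median target was 0.51 log2 units above the mean of the KO 1- and KO 2-labelled libraries, against -0.01 over all genes tested. Bnip3 and Bnip3l were raised in that library in the same direction, and the part of HIF-1 in their levels was not tested.

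**Figure D5:**
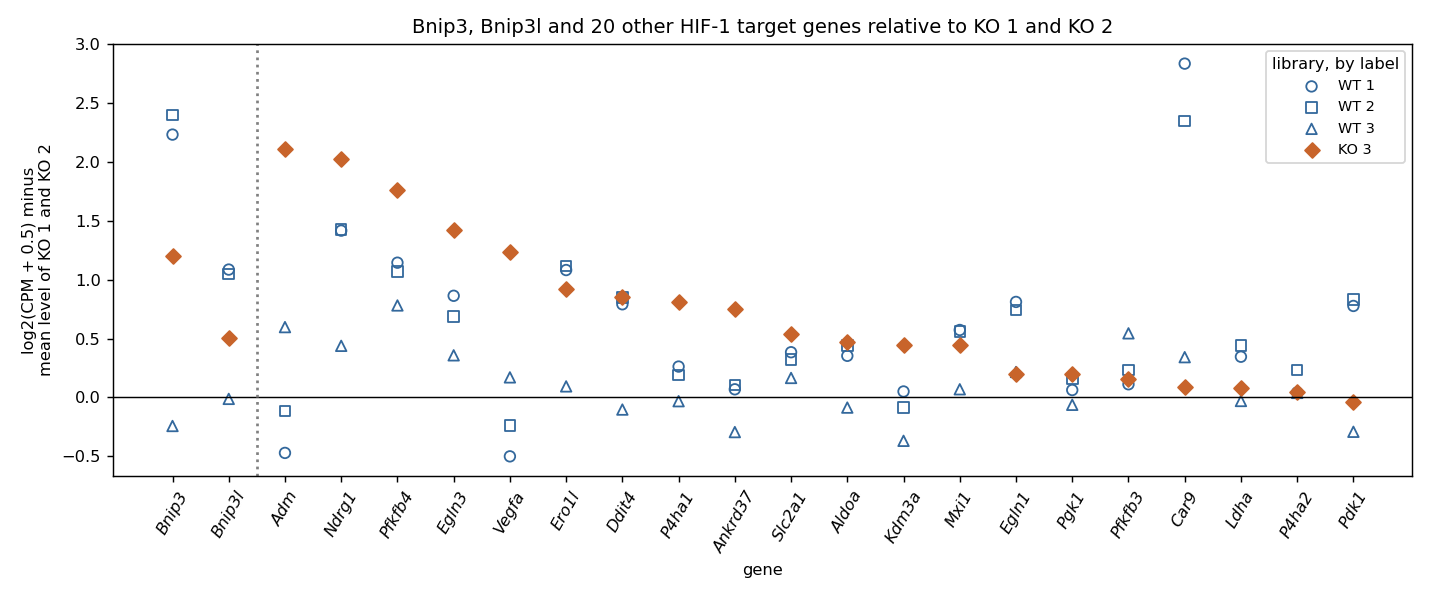
Level of Bnip3, Bnip3l and 20 other HIF-1 target genes (horizontal axis) in 4 libraries, as log2(CPM + 0.5) minus the log2 of the mean of the KO 1- and KO 2-labelled libraries with the same addition. Filled diamonds, the KO 3-labelled library, lie above 0 in most genes; open symbols are the 3 libraries labelled wild type.

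Reads shared with other genes limit some of these values. Bnip3, Bnip3l, Fkbp8 and Usp30 had estimated counts that were not whole (by more than 0.1) in all 6 libraries, Phb2 in 5, Pink1 in 2 and Bcl2l13 in 1, while those of Fundc1 and Usp8 were whole in every library. In GENCODE vM21, exons of Bnip3 overlap those of Gm45507 on the other strand over 22.3% of their bases, those of Usp30 overlap Alkbh2 and Svop over 8.08%, and those of Fkbp8 overlap Kxd1 over 4.95%. Bcl2l13 exons overlap Bid over 6.91%, Phb2 exons overlap Gm15884 and Gm23547 over 7.96%, and Pink1 exons overlap the small RNA genes Gm27646 and Mir7019 over 6.70%. The sources used here do not say whether counting used strand, so reads in these stretches cannot be assigned. Bnip3l has an annotated pseudogene, Bnip3l-ps, on another chromosome, and its values are uncertain to that extent.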

How the data were processed

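Messenger RNA of sorted lung ILC2s was measured in 6 libraries, grouped by the sample titles. The authors deposited estimated counts per gene, of which 47.1% to 48.5% per library were whole (within 1e-06), so reads had been shared between genes. Partek, STAR, CASAVA 1.8.2 and the mm10 build appear in the submitters' processing notes, without role or order. The STAR version given there does not exist for that tool and is not repeated. The authors' second deposited table holds a normalized signal, found from the values to equal 1 added to the estimated count, over a library factor of 31.2 to 36.0. It served as an alternative. Table columns were matched by the names in the sample descriptions, and 0 were left over.

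Estimated counts were rounded and fitted on all genes with edgeR 4.0.16 in R 4.3.3 (TMM, filterByExpr, glmQLFit robust, glmQLFTest), knockout against wild type, with Benjamini-Hochberg adjustment over all genes tested and a threshold of 0.05. The SE of a log2 difference was taken from the F statistic (size over root F), and 95% intervals use the fit's degrees of freedom. The procedure was tested on simulated data in which every library followed its label. That test does not cover a library placed against its label, as the WT 3-labelled one was in Atg5. CPM use TMM-adjusted library sizes. Floors of 3 counts cover counting error only, because PCR reads that carry no molecular identifier need not come from separate molecules. Levels per kilobase use GENCODE vM21 exons. Gene ends are the deposited ones less 1 base, which match that release for the 9 genes. Genes named from lists are the 2 with the lowest p in each pathway group and the 4 with the lowest p among HIF-1 targets, and, for the 3 genes of widest range, the 2 most like in Pearson r among named genes of mean log2 CPM of at least 1. One gene that this rule names is not reported here. Of 43 pathway genes listed, 41 were analysed. The members and lists were chosen with earlier results of these data known. Several summaries were chosen after the values were seen and have no test: the order of the WT 1- and WT 2-labelled libraries against the other 4, also among the markers, the place of the KO 3-labelled library, the receptor shares, the ratios between genes and the GCGTG letters. The fit without the WT 3-labelled library is 1 of 18 alternatives, and it is read beside that to all 6 because of the level of Atg5 there, so it is no independent evidence on Atg5. The library left out was also seen to correlate more closely with the KO 1-labelled library over genes that include the 9. The calls and p-values of that fit are therefore no independent evidence on the 9 genes either. Alternatives were other scalings, filters and tools (DESeq2 1.42.0, limma 3.58.1), the replicate number as a block, and libraries left out.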

Additional observations from a re-analysis of the deposited data

How the results depend on the processing

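None of the 9 genes changed direction under any of 18 alternatives, and the 10 that kept all 6 libraries at equal weight passed 0 of the 9. Results turned on the WT 3-labelled library. With each library left out in turn, the number of the 9 genes passing ranged from 0 to 7, of all genes from 0 to 4991, of the pathway list from 0 to 18 and of the HIF-1 targets from 0 to 4, and each upper value is the fit without the WT 3-labelled library. Without both libraries numbered 3 these numbers were 7, 6505, 27 and 12, the 12 all lower with the knockout label. With limma-voom and sample quality weights on all 6 libraries they were 7, 6319, 22 and 10. DESeq2 passed 323 genes in all, 0 of the 9 and 1 HIF-1 target. In 7 of the 9 genes the labels did not overlap without the WT 3-labelled library (an alternative chosen after seeing the data), as in 61.6% of all genes tested. The log2 difference of Bnip3 ranged from -2.33 to -0.96 over the alternatives, that of Pink1 from -1.95 to -0.94 and that of Phb2 from 0.34 to 1.31. With the replicate number as a block (replicate block), 0 of the 9 genes, 0 of all genes, 0 pathway genes and 0 HIF-1 targets passed. Same-numbered libraries did not deviate together (r from -0.04 to 0.02), and neither did pairs with different numbers (r from -0.01 to 0.02). With so few libraries this does not settle whether a number stands for a shared preparation. Depth did not limit the 9 genes, whose lowest estimated count in a library was 426.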
